A study of Homo sapiens with 10 samples.

Results

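ADAM10, ADAM17 and 5 genes of gamma-secretase (PSEN2, PSENEN, NCSTN, APH1A and APH1B) encode the proteases that cut NOTCH receptors after a ligand has bound. These 7 genes were picked by name from 55889 gene IDs, with no use of their measured values, and all 7 were matched. They do not hold every gene of the complex. The cells were KOPT-K1, a human line of T-cell acute lymphoblastic leukaemia (T-ALL). The control cells received DMSO, the solvent, and the treated cells received silvestrol at 25 nM, both for 45 minutes. Silvestrol blocks eIF4A, the RNA helicase that unwinds the 5′ ends of mRNAs so that ribosomes can load. Ribosome-protected fragments (footprints) were sequenced in 2 libraries per treatment and total RNA in 3 libraries per treatment, 10 libraries in all. All came from 1 cell line. Nothing says that the libraries of a group were separate cultures, so each p-value reflects how far these libraries scatter, and that scatter may be purely technical.

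NOTCH activation takes 2 cuts in order. An ADAM metalloprotease first sheds the outer part of the receptor, and gamma-secretase then cuts the stub inside the membrane and frees the intracellular domain, which enters the nucleus and drives transcription. A presenilin (PSEN2 is one) holds the catalytic aspartates of gamma-secretase. Nicastrin (NCSTN) is its large glycoprotein and gates substrates, APH1A or APH1B is the scaffold, and the small subunit encoded by PSENEN is needed for the presenilin to mature. NOTCH1 is a frequent oncogene of T-ALL, and gamma-secretase inhibitors have been used against it. The same enzymes cut many other membrane proteins. In GENCODE 29, ADAM10 (ENSG00000137845.9) and APH1B (ENSG00000138613.9) lie on chromosome 15, ADAM17 (ENSG00000151694.8) on chromosome 2 and PSENEN (ENSG00000205155.2) on chromosome 19. PSEN2 (ENSG00000143801.12), NCSTN (ENSG00000162736.11) and APH1A (ENSG00000117362.8) lie on chromosome 1. The IDs carry their versions as deposited, and GENCODE 29 was matched without the version.

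The title of the series names RNA G-quadruplexes, structures that guanine-rich RNA can fold into, so the 5′ untranslated regions (UTRs) of the 7 genes were read first, in 1 GENCODE 29 transcript per gene (build GRCh38). ADAM10 was the only one of the 7 with a G-quadruplex pattern, here 4 runs of at least 3 G with 1 to 7 bases between runs, and the only one with 4 or more GGC or CGG repeats. Both patterns were searched on the mRNA strand. Its sites are shown because no other gene of the 7 had either pattern, with the matched letters in capitals. The patterns can overlap in general, and in ADAM10 they lie apart.
ADAM10 G-quadruplex pattern: cgcctGGGGGACGGGTAGGGGCGGGaggta
ADAM10 repeat run: gtgaggaGGCGGCGGCGGCGGCagcggca
The G-quadruplex pattern spans positions 66 to 85 of the ADAM10 transcript and ends 359 nt before the start codon. The repeat run spans positions 416 to 430 and ends 14 nt before the start codon. It was in all 7 annotated coding transcripts of ADAM10 with a 5′ UTR, and the G-quadruplex pattern in 1 of the 7, the transcript with the longest 5′ UTR. Of 8898 tested genes with a 5′ UTR, 10.9% held the G-quadruplex pattern, 4.75% the repeat run and 1.03% both. A match is a description of letters and not a shown structure.

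The sequence around each start codon, where a scanning ribosome begins, is given for the 7 genes with the start codon in capitals, since initiation is the step the drug acts on.
ADAM10: cagcggaagATGgtgttg
ADAM17: gccgggaacATGaggcag
PSEN2: ggcagggctATGctcaca
PSENEN: agcgcagctATGaacctg
NCSTN: agaggcaagATGgctacg
APH1A: tgaccagccATGggggct
APH1B: gcggtggccATGactgcg
All 7 carried A or G at the third base before the start codon, as did 86.7% of the tested genes with a 5′ UTR. ADAM10, NCSTN and APH1A also carried G right after the start codon, which 55.0% of the tested genes had. These are the 2 positions that matter most in the textbook start context.

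The 5′ UTRs differed widely in length. PSENEN had the longest in the transcript chosen, at 683 nt, longer than in 94.1% of tested genes, but its 3 annotated coding transcripts ranged from 140 to 683 nt. ADAM10 had 444 nt (range over transcripts 60 to 444 nt) and PSEN2 had 436 nt. ADAM17 had 247 nt, APH1A 189 nt, NCSTN 125 nt and APH1B 70 nt, against a median of 198 nt over the tested genes. Their GC content was 58.0% to 78.6%, lowest in PSEN2 and highest in APH1B, with 68.9% in ADAM10 and a median of 66.0% over the tested genes. Which of these transcripts KOPT-K1 cells use was not measured.

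**Figure D1:**
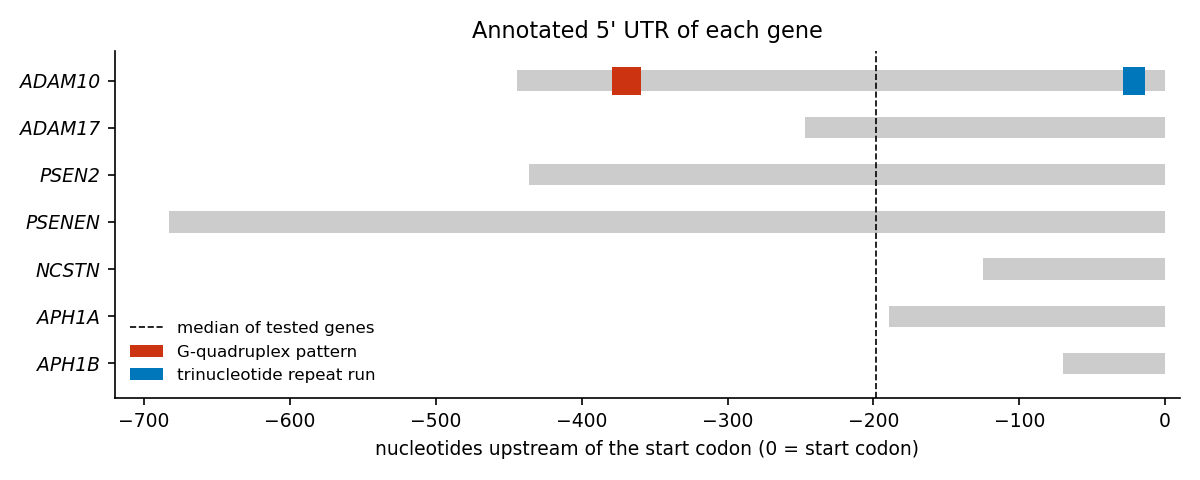
Annotated 5′ UTR of each of the 7 genes, drawn to scale as a grey bar that ends at the start codon (x axis, nucleotides upstream). The red block is the G-quadruplex pattern and the blue block the trinucleotide repeat run, both in ADAM10; the dashed line is the median length over tested genes, 198 nt.

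Total RNA gives the supply of each mRNA. Values are RPKM, the reads of a gene scaled by its length and by the library total. Levels can be compared between genes only as far as the lengths used, which are not stated, fit the mRNAs present. The DMSO levels ran from APH1A through PSENEN, NCSTN, ADAM10, ADAM17 and APH1B down to PSEN2, and no neighbours in that order overlapped between libraries. APH1A, the main scaffold gene, was read at 47.1, 45.8 and 45.5 RPKM in the DMSO RNA libraries, a level above 87.6% of tested genes. PSENEN stood at 25.3, 25.7 and 24.6 RPKM. NCSTN stood at 17.7, 17.9 and 17.4 RPKM. The subunits of 1 complex thus differed in RNA level by more than the spread between libraries.

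ADAM10, the protease that makes the ligand-dependent cut in NOTCH receptors, was at 11.4, 11.1 and 11.7 RPKM. ADAM17, best known as the TNF converting enzyme, was lower, at 8.70, 8.42 and 8.98 RPKM. APH1B, the second scaffold gene, was at 2.00, 1.93 and 1.95 RPKM, so APH1A RNA exceeded it many times over: the APH1B to APH1A ratio was 0.0421 to 0.0429 within DMSO libraries. PSEN2 was close to silent, with 0.0795, 0.0823 and 0.0879 RPKM in DMSO and 0.0820, 0.0628 and 0.0863 RPKM in silvestrol, an estimated 39 to 67 reads per RNA library. Its footprints were listed at 0 in 3 of the 4 footprint libraries and at 0.224 RPKM in silvestrol replicate 1, an estimated 2 reads. PSEN2 fell under the filter of a mean of 1 RPKM in each assay and was not tested. The other 6 passed it, among 10297 genes tested.

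Footprints, which count ribosomes on the mRNA, gave another order. PSENEN led with 38.1 and 39.4 RPKM in the DMSO libraries. ADAM10 followed with 13.5 and 16.0 RPKM, APH1A with 14.2 and 12.0 RPKM and NCSTN with 10.1 and 12.0 RPKM. ADAM10 and APH1A, and APH1A and NCSTN, overlapped and could not be placed in order. ADAM17 gave 8.29 and 6.26 RPKM and APH1B 1.85 and 2.63 RPKM.

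The footprint to RNA ratio in DMSO, a measure of baseline translational efficiency, therefore differed among the subunits. It was 1.54 for PSENEN, higher than in 90.8% of tested genes, and 1.29 for ADAM10, higher than in 84.6%. APH1B had 1.14, ADAM17 0.836 and NCSTN 0.625. APH1A had 0.284, higher than in only 6.4% of tested genes. NOTCH1, the main substrate in these cells, had 0.576 from footprints of 16.3 and 11.9 RPKM and RNA of 23.6, 25.6 and 24.2 RPKM. Footprints lie mostly in the coding part of an mRNA, so the ratio can depend on the lengths behind the RPKM values, which are not stated in the labels or files. In the chosen transcripts, ADAM10 had 2244 coding nt of 11431, PSENEN 303 of 1661 and APH1B 771 of 4189. NCSTN had 2127 of 2936, APH1A 795 of 1713 and ADAM17 2472 of 4413. PSENEN, APH1B and ADAM10 thus had the smallest coding shares and also the highest ratios. The part of length in these ratios was not tested.

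**Figure D2:**
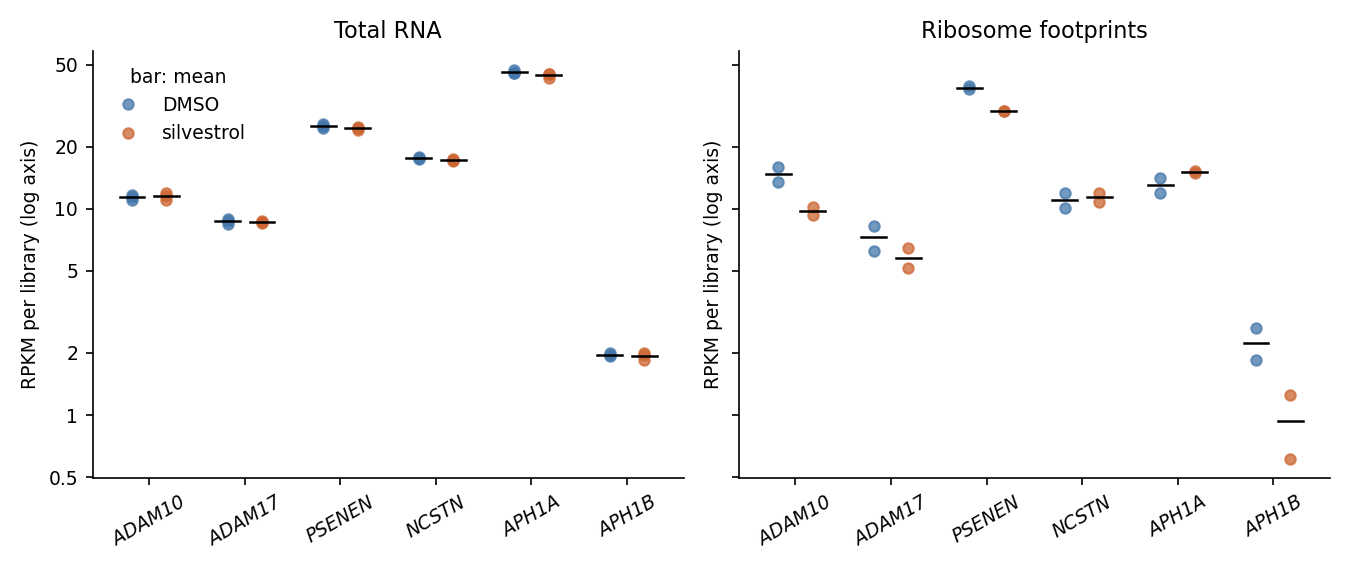
RPKM of 6 genes in each library (log y axis), total RNA on the left (3 libraries per treatment) and footprints on the right (2 per treatment); points are libraries, blue for DMSO and orange for silvestrol, and bars are means. RNA values of both treatments lie close for all 6 genes, without overlap only in APH1A. Silvestrol footprints lie below DMSO in ADAM10, PSENEN and APH1B and above DMSO in APH1A. PSEN2 is left out since most of its footprint values are 0.

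Silvestrol left the RNA of all 6 tested genes within a narrow band. Log2 changes (silvestrol minus DMSO, on the log2(RPKM + 0.5) scale used throughout, which understates the change of low genes) ran from -0.05 for APH1A to 0.02 for ADAM10, against a median of 0.00 over all genes. None of the 6 was called, where a call is an adjusted p under 0.05 in limma over all tested genes. The adjusted p ran from 0.743 to 0.984. Over all genes 0.00971% were called lower and 0.272% higher in RNA (29 genes), and 950 had an unadjusted p under 0.05, none of the 6 among them. The interval of the change was -0.07 to 0.10 for ADAM10 and -0.13 to 0.10 for APH1B, the widest (95%). APH1A was the only one whose RNA groups did not overlap. Its silvestrol libraries gave 45.2, 45.3 and 43.4 RPKM, all below the DMSO libraries, as in 3.99% of tested genes (8.97% did not overlap in the other direction).

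In footprints, 4 of the 6 genes had groups that did not overlap, 3 lower and 1 higher with silvestrol. Over all tested genes 25.2% did not overlap with silvestrol lower and 13.1% with silvestrol higher. None of the 6 was called by limma on the 4 footprint libraries alone (limma adjusted p from 0.668 to 0.978). That comparison called 0.0291% of genes lower and 0.0194% higher. ADAM10 and PSENEN were among the 719 genes with an unadjusted p under 0.05. RPKM is relative to each library's total, so a loss of translation shared by all mRNAs would not show.

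ADAM10 footprints were 13.5 and 16.0 RPKM in DMSO and 9.35 and 10.2 RPKM in silvestrol. Both silvestrol libraries lay below both DMSO libraries, with means of 14.8 ± 1.8 (SD, n = 2) and 9.77 ± 0.60 RPKM (n = 2), a fall in mean to 66.3%. PSENEN footprints were 38.1 and 39.4 RPKM in DMSO and 29.7 and 29.9 RPKM in silvestrol. Again the groups did not overlap, and the means were 38.8 ± 0.92 (SD, n = 2) and 29.8 ± 0.14 RPKM (n = 2), or 76.9% of DMSO. APH1B footprints were 1.85 and 2.63 RPKM in DMSO and 0.613 and 1.25 RPKM in silvestrol. The means were 2.24 ± 0.55 (SD, n = 2) and 0.931 ± 0.45 RPKM (n = 2), or 41.6% of DMSO, the largest change of the 6, and rest on an estimated 23 and 24 reads in DMSO and 8 and 14 in silvestrol.

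ADAM17 footprints were 8.29 and 6.26 RPKM in DMSO and 5.14 and 6.46 RPKM in silvestrol, so the groups overlapped. NCSTN footprints were 10.1 and 12.0 RPKM in DMSO and 12.0 and 10.8 RPKM in silvestrol, also overlapping. APH1A footprints were 14.2 and 12.0 RPKM in DMSO and 15.0 and 15.3 RPKM in silvestrol. APH1A thus was the 1 member whose silvestrol libraries both lay above DMSO.

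Translational efficiency was tested as the change in footprints beyond that in RNA, in 1 limma fit over the 10 libraries. Of the 6 genes, 2 fell and 0 rose, where 3.99% of all genes were called lower and 1.3% higher. ADAM10 fell by 0.58 on the log2 scale (SE 0.12, interval -0.86 to -0.30, adjusted p = 0.0351). PSENEN fell by 0.34 (SE 0.07, interval -0.49 to -0.19, adjusted p = 0.0257). The median over all genes was -0.08. APH1B had a larger log2 change, -0.94 (SE 0.30, interval -1.62 to -0.26), but its adjusted p of 0.109 missed the threshold. ADAM17 had -0.29 (interval -0.70 to 0.12, adjusted p = 0.390), NCSTN 0.08 (-0.19 to 0.34, adjusted p = 0.751) and APH1A 0.25 (0.03 to 0.48, adjusted p = 0.177). As a group of 6 the median was -0.32.

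The 2 calls depend on the error model. RNA libraries varied far less than footprint libraries (median SD 0.04 and 0.05 against 0.18 and 0.19, log2 scale), and the fit gave both assays 1 spread. On simulated data with unequal spreads of this kind, that fit called genes that had not been changed far more often than its threshold allows, and a fit with weights per assay made far fewer such calls. The SEs and intervals printed for translational efficiency come from the fit with 1 spread and may likewise be too narrow. With weights per assay the SE was 0.26 for ADAM10 and 0.19 for PSENEN, against 0.12 and 0.07. The calls in translational efficiency, of ADAM10 and PSENEN and of the genes named further on, are therefore provisional. With weights per assay neither was called (ADAM10 adjusted p = 0.669, PSENEN adjusted p = 0.739). Leaving out any 1 of the 6 RNA libraries ended both calls (adjusted p 0.0804 to 0.111 and 0.0822 to 0.0953). It also cut the calls over all genes from 411 lower and 134 higher to 64 to 88 lower and 27 to 33 higher. That loss was thus not particular to ADAM10 and PSENEN. Both calls also ended with median scaling (adjusted p = 0.0604 and 0.0648) and quantile normalization (0.0654 and 0.0633). Leaving out any of the 4 footprint libraries kept both calls (adjusted p 0.00474 to 0.0258 and 0.00847 to 0.0143), but it also raised the calls over all genes from 411 lower and 134 higher to 1153 to 1755 lower and 574 to 895 higher. A call kept or gained there is therefore no sign of stability. Under those settings APH1B was called without DMSO footprint replicate 1 (log2 change -1.15, adjusted p = 0.0356) or silvestrol footprint replicate 2 (-1.27, adjusted p = 0.00612), and APH1A was called higher without DMSO footprint replicate 1 (0.37, adjusted p = 0.00872). Over 17 alternatives the adjusted p ranged from 0.00474 to 0.669 for ADAM10, 0.00847 to 0.739 for PSENEN, 0.00612 to 0.603 for APH1B and 0.00872 to 0.844 for APH1A. The sign of the change held in all 17 for each of these 4 genes, which again is no sign of stability. Weights per assay, a block for replicate number and no filter on low values leave the estimate unchanged. The footprint groups of these 4 genes also did not overlap, so leaving out 1 library could hardly turn the sign.

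**Figure D3:**
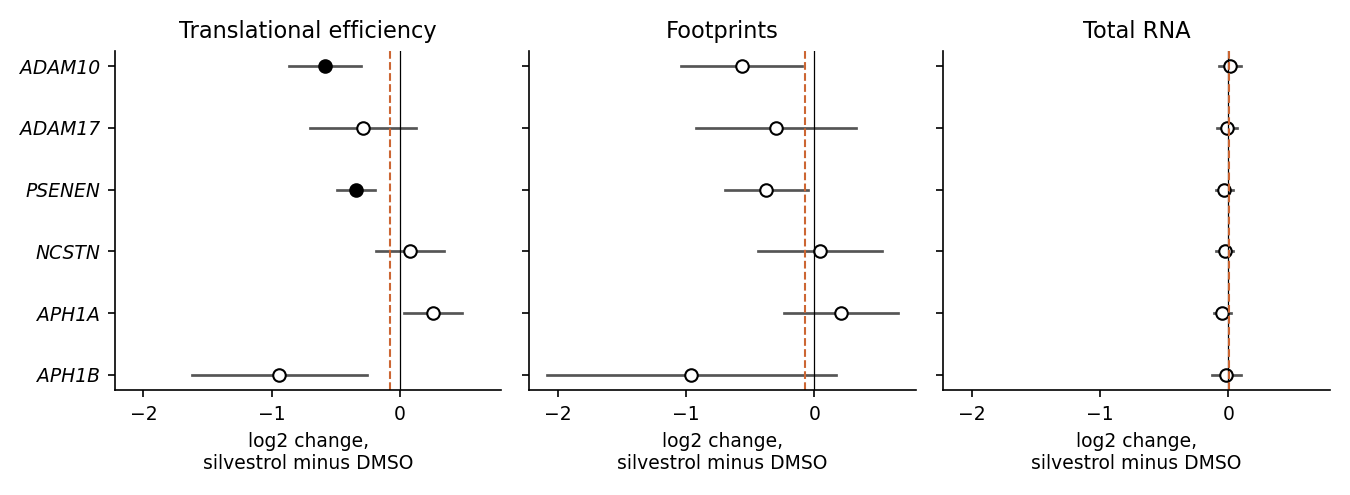
Log2 change (silvestrol minus DMSO, x axis) of 6 genes in translational efficiency, footprints and total RNA; points are estimates and lines their 95% intervals, filled points have an adjusted p under 0.05 in limma, and the dashed line is the median of all 10297 tested genes. ADAM10 and PSENEN are filled in translational efficiency, and all 6 RNA changes sit near 0.

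**Figure D4:**
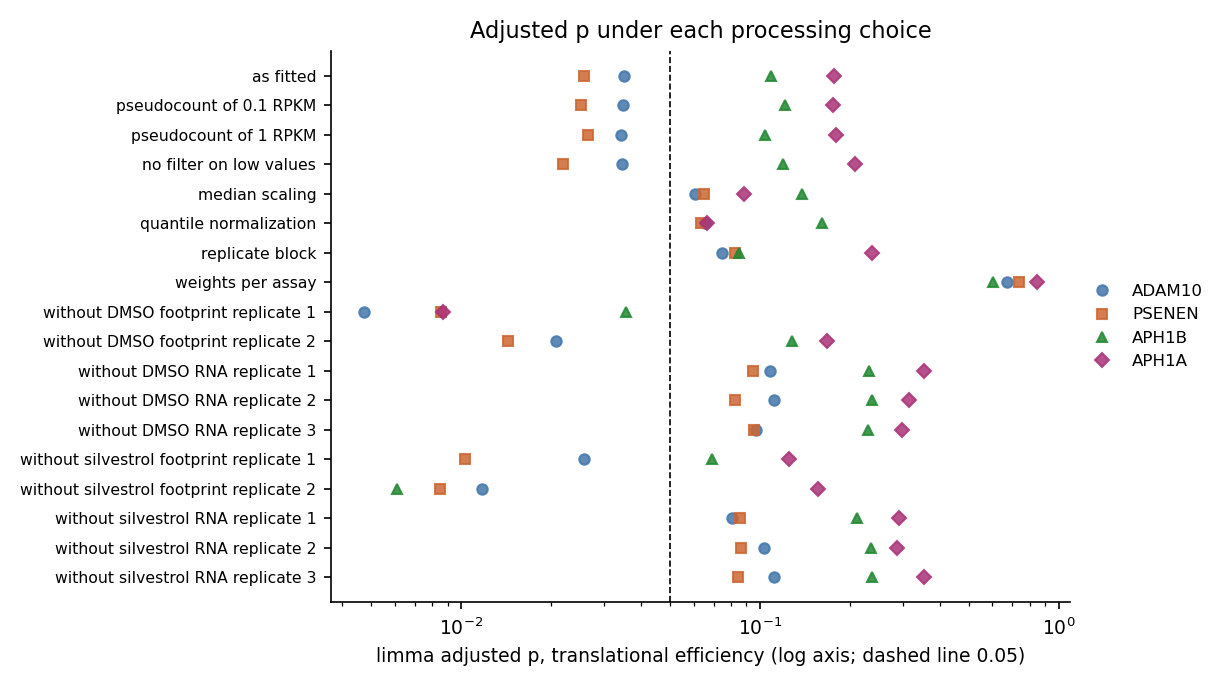
Adjusted p for the change in translational efficiency (log x axis) of ADAM10, PSENEN, APH1B and APH1A under the fit used and 17 alternatives (rows), with the 0.05 threshold dashed. ADAM10 and PSENEN lie left of the line in the fit used, with other pseudocounts, without the filter and with any footprint library left out, and right of it under the other 10 alternatives.

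Ratios of 2 members within a library do not depend on how the library was scaled, and 4 such pairs were computed. The ADAM10 to ADAM17 footprint ratio was 1.63 and 2.56 in DMSO and 1.58 to 1.82 in silvestrol. These overlapped between treatments. The PSENEN to NCSTN footprint ratio was 3.28 to 3.77 in DMSO and 2.48 to 2.77 in silvestrol, without overlap. The PSENEN to APH1A ratio was 2.68 to 3.28 and then 1.95 to 1.98.

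The APH1B to APH1A footprint ratio was 0.130 to 0.219 in DMSO and 0.0409 to 0.0817 in silvestrol. Both of the last ratios share APH1A, the member whose silvestrol footprints lay above DMSO. The share of other gene pairs without overlap was not computed, and single genes already did not overlap in 25.2% (lower) and 13.1% (higher) of cases, so nothing is read from these ratios beyond their values. In RNA all 4 ratios overlapped between treatments, for PSENEN to NCSTN 1.41 to 1.44 in DMSO and 1.42 to 1.43 in silvestrol. With 2 libraries a group an exact permutation test cannot go below p = 0.333, so no test was made of these ratios.

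Other members of the same proteolytic system were read from 7 lists, 152 genes of which 80 were tested. In translational efficiency 3 were called lower and 2 higher, that is 3.75% lower against 3.99% of all genes, and the median was -0.14. Among 16 other ADAM genes 3 were tested, and none was called. ADAM19 had a log2 change of -0.33, ADAM22 -0.44 and ADAM9 -0.24. ADAM19 was also the most abundant ADAM gene of these 3, at 19.7 RPKM in DMSO RNA, above ADAM10. Of 19 genes for the maturation, transport and inhibition of ADAM10 and ADAM17, such as the convertase FURIN, the tetraspanins and the TIMP inhibitors, 9 were tested and 0 called (log2 changes from -1.45 to 1.01, median -0.16). Of 13 assembly factors and modulators of gamma-secretase, 10 were tested and 0 called (-0.50 to 0.05, median -0.15).

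Among 16 other intramembrane proteases and beta-secretases, 9 were tested, with a median of -0.15. SPPL2B, a signal peptide peptidase-like aspartyl protease related to presenilin, fell by 0.68 (SE 0.13, adjusted p = 0.0253). Its footprints went from 5.38 ± 0.16 RPKM (SD, n = 2) to 3.18 ± 0.21 RPKM (n = 2) at an RNA level of 11.5 RPKM in both treatments. Of 44 other substrates of shedding or intramembrane cleavage, 22 were tested, and their median was 0.01. TNF, the classical substrate of ADAM17, rose by 0.66 (SE 0.15, adjusted p = 0.0459), with a footprint level of 11.2 ± 0.57 RPKM (SD, n = 2) that became 16.6 ± 2.8 RPKM (n = 2) with silvestrol.

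Of 27 NOTCH receptors, ligands and modifiers, 17 were tested (median -0.02). DTX1, an E3 ligase that binds NOTCH, fell by 0.54 (adjusted p = 0.0192), and NOTCH1 itself had -0.19 (interval -0.58 to 0.21, adjusted p = 0.574). NOTCH1 was called lower without DMSO footprint replicate 2 (-0.41, adjusted p = 0.0485), a setting that called 1340 genes lower. Of 18 genes of the nuclear complex and targets, 11 were tested (median -0.07). In translational efficiency DTX1 and MYC (by 0.63) fell while HES1 rose by 0.91. MYC footprints changed less, by -0.24 (139 ± 4.2 to 118 ± 7.1 RPKM, SD, n = 2 each), while its RNA mean went from 77.9 to 103 RPKM. Mean footprints went from 32.1 to 22.9 RPKM for DTX1 and from 2.53 to 5.51 RPKM for HES1. With weights per assay none of the 5 genes called in these lists (SPPL2B, TNF, DTX1, MYC and HES1) was called (adjusted p 0.620 to 0.777). None of the 80 was called in footprints alone. In RNA MYC was the 1 called, higher by 0.40 (SE 0.06, adjusted p = 0.0451, and 2.16e-04 to 0.196 over 12 alternatives).

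For each tested member the 3 genes with the most similar values were found by Pearson's correlation of log2 values, centred within each assay, over the 10 libraries. The measure is given as a description, since all values share libraries and the best among so many genes are always high. ADAM10 was most like ZNF664 (r = 0.997), NPM1 (0.994) and CSNK1A1 (0.993). ADAM17 was most like DCAF11 (0.993), ZNF197 (0.986) and PATL1 (0.986). PSENEN was most like GPR108 (0.994), CDIPT (0.988) and DTD2 (0.985). NCSTN was most like IRAK4 (0.977), UBFD1 (0.971) and HAUS1 (0.969). APH1A was most like the pseudogene EIF4A1P10 (0.983), DFFA (0.976) and NRN1 (0.973). APH1B was most like XAF1 (0.997), RNF41 (0.997) and STRADB (0.993). No gene was nearest to more than 1 member.

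Depth and cell identity bear on all of these values. Footprint libraries held an estimated 1.66M to 2.38M reads and RNA libraries 126.7M to 216.4M reads (M, mega), worked out from the step between low RPKM values. On that basis ADAM17 rested on 112 to 202 footprint reads per library, PSENEN on 112 to 159, NCSTN on 83 to 119, APH1A on 69 to 124 and ADAM10 on 335 to 494, while RNA reads were at least 1280 for each of the 6. Of 12 T-cell markers 11 had a mean RNA level of at least 1 RPKM, among them CD3D at 674 RPKM, and the exception was the constant region gene TRBC1. Of 18 markers of other lineages (B cell, myeloid, erythroid, stromal), 2 did, CD79A at 31.4 RPKM and CD79B at 8.30 RPKM, while MS4A1 and PAX5 were at 0. The summed B-cell markers were 39.5 to 41.4 RPKM in DMSO and 37.7 to 39.5 RPKM in silvestrol, and their part in any result was not tested. In the annotation all 6 tested genes but APH1B overlap a gene on the opposite strand, and whether reads were counted by strand is not stated, so reads of such pairs may be mixed. Among these genes, IAH1 at ADAM17 had 6.66 RPKM in footprints of both treatments. C1orf54 at APH1A had 14.0 RPKM in DMSO footprints and 14.9 RPKM in silvestrol. COPA, which overlaps NCSTN by 129 nt, had 26.5 and 24.0 RPKM. At PSENEN, AD000671.2 had 2.97 and 2.37 RPKM and U2AF1L4 had 0.811 and 1.83 RPKM.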

How the data were processed

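The authors deposited 1 table per library with RPKM values per Ensembl gene ID, per the file headers. Footprint values carry 3 significant digits. Per the submitters' processing notes STAR and the hg19 build were used, with no version stated. How reads were counted, with which gene lengths and by strand or not, is not given in the labels or headers. A table of gene names matched 49395 IDs and GENCODE 29 a further 267. GENCODE 29, on another build, served only for names, lengths and UTRs (1 transcript per gene: APPRIS principal, then longest coding part).

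Groups and replicate numbers came from the sample titles. Values were analysed as log2(RPKM + 0.5) in R 4.3.3 with limma 3.58.1 (trend and robust), in genes with a mean of at least 1 RPKM in each assay, with Benjamini-Hochberg adjustment over all of them. Tests were two-sided. The fits were tested on simulated data: they recovered the changed genes, but the translational efficiency fit with 1 spread for both assays also called many unchanged genes where the assays differed in spread. Library totals were estimated as the value that makes low RPKM whole reads in genes with 1 transcript. From 89.85% to 91.94% of such values lay within 0.05 of a whole number. Gene sums of the reads so obtained were 118.3% to 119.8% of the RNA totals, so read numbers are rough. No count model was used.

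All 7 genes were named throughout. Of the 7 lists, genes called in translational efficiency or footprints were named, and in RNA those called with a log2 change of at least 0.3; other names were chosen after their values were seen. Genes and lists were chosen with earlier results of these data known, and 1 gene of the lists is not reported here. Alternatives were 2 pseudocounts, no filter, 2 scalings, a replicate block, weights per assay and leaving out each library.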

Additional observations from a re-analysis of the deposited data

How the results depend on the processing

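Footprint depth and 2 libraries a group limit every value that uses footprints. Of 234 values of the 6 tested members under the alternatives, 203 kept their direction and their side of the threshold, 20 lost a call (ADAM10 and PSENEN, 10 each), 3 gained one and 8 changed sign. The number of members called lower in translational efficiency was 0 in place of 2 with median scaling, quantile normalization, the replicate block or weights per assay, and 0 to 3 with 1 library left out; the number called higher was 0 to 1. Over all genes, translational efficiency gave 411 lower and 134 higher. Median scaling gave 275 and 180, quantile normalization 314 and 207, no filter 619 and 272, weights per assay 9 and 2, and leaving out 1 library 64 to 1755 and 27 to 895 (RNA libraries 64 to 88 and 27 to 33, footprint libraries 1153 to 1755 and 574 to 895). Footprints gave 3 lower and 2 higher, against 0 lower with a pseudocount of 0.1 RPKM, 1 and 1 with no filter, 5 higher with quantile normalization and 0 and 0 with any library left out. RNA gave 1 lower and 28 higher, against 0 and 0 with no filter, 2 lower with median scaling, 0 lower with quantile normalization, and 0 to 5 and 0 to 30 with 1 library left out. The cause was not tested, apart from the fewer samples or other genes that an alternative itself brings.

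The replicate block, pairing libraries by number, gave 43 lower and 20 higher in translational efficiency, 0 and 1 in footprints, and 8 and 49 in RNA. Deviations from the group mean in same-numbered libraries had r = -0.03 in both footprint pairs, and 0.04, -0.33 and 0.15 in RNA. With 2 footprint libraries a group, both pairs must give the same r. These values cannot show whether same-numbered libraries shared a culture or a batch.

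With 1 library left out, where a lone footprint library is assumed to vary like the other groups, some changes near 0 changed sign. Translational efficiency then ranged from -0.0434 to 0.1944 for NCSTN and -0.4054 to 0.0327 for NOTCH1, both turning without DMSO footprint replicate 1. Footprint changes ranged from -0.0728 to 0.1651 for NCSTN (-0.0267 without silvestrol replicate 1) and -0.3396 to 0.0985 for NOTCH1. RNA changes ranged from -0.0123 to 0.0478 for ADAM10, -0.0322 to 0.0117 for ADAM17, -0.036 to 0.0117 for APH1B and -0.0607 to 0.0468 for SPPL2B. With each gene's longest 5′ UTR, lengths became 671 nt for PSEN2, 493 nt for APH1A and 192 nt for APH1B.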
